A study of Mus musculus with 15 samples.

Results

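AP-1 is a dimeric transcription factor built from basic leucine zipper (bZIP) proteins of the FOS, JUN, BATF and ATF families, and the RNA levels of 10 of its genes were followed here in MLL-ENL-transformed mouse cells with and without C/EBPα and C/EBPβ. The 10 genes were Fos, Fosb, Fosl1, Fosl2, Jun, Junb, Jund, Batf, Batf3 and Atf3, chosen by their symbols among the 53379 genes of the table. Of these, 8 passed the filter on low values (10 or more normalized reads in 3 or more libraries), as did 12673 genes in all. RNA was sequenced from fetal liver cells that a retrovirus carrying the fusion oncogene MLL-ENL had transformed. The WT cells carried floxed but intact Cebpa and Cebpb alleles, the dKO cells had lost both genes after treatment with a cell-permeable Cre recombinase (TAT-Cre) and were labelled with exogenous GFP, and the LAPS cells were dKO cells that expressed GFP and LAP*, the longest isoform of rat C/EBPβ. WT and dKO cells came from clones C1 and C2, which are derived from different mice, and LAPS cells were analysed from clone C1 alone. All lines were grown in mouse interleukin-3 at 10 ng/ml.

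Each of the 5 groups held 3 libraries, which were made from RNA of 1 cell line taken at different times. The p-values thus measure the spread between cultures of a line and not between animals, and a difference between C1 and C2 cannot be told apart from a difference between mice. Both dKO lines are outgrowths of the few cells that survived the loss of both genes. Libraries held 9212237 to 13613500 reads on genes. Cebpa and Cebpb were at 0 in every dKO library, which fits the labels. All 10 myeloid markers examined (such as Mpo, Elane and Spi1) exceeded 3 reads in at least 1 library, though not all of them in every group. Of 15 markers of other fetal liver cells, 10, among them Alb, Cdh5 and Cd3e, were at or below 3 reads in every library. The summed level of the myeloid markers was 91103 to 95739 normalized reads in C1 WT and 170109 to 194698 in C1 dKO libraries. In clone C2 it was 78262 to 84264 in WT and 141576 to 162947 in dKO libraries, and it was 160837 to 194840 in C1 LAPS libraries. Mpo, Elane and Prtn3, the genes of granule proteins, make up most of this sum. Of the 10 markers, 7 rose and 1 fell in C1 dKO cells (17.1% and 19.9% of all tested genes). In C2 dKO cells 7 rose and 0 fell (17.4% and 20.1% of all). Csf1r, the receptor of a macrophage growth factor, was the one that fell in C1, from 3237 ± 381 to 921 ± 213 normalized reads (SD, n = 3; adjusted p = 9.39e-06). Cd34, a marker of immature cells, rose from 5.21 ± 2.08 to 2623 ± 199 in C1 (adjusted p = 9.1e-12), and in C2 it was at 0.00 to 2.10 in WT and 5935 to 6975 in dKO libraries (adjusted p = 3.07e-13). In C1 LAPS against WT cells 5 of the 10 myeloid markers were called higher and 2 lower (14.2% and 18.3% of all). These 10 genes join those of immature and of mature myeloid cells, so their sum and counts do not measure maturity. The 15 markers of other cells summed to 344 to 610 in C1 WT, 444 to 482 in C1 dKO, 210 to 244 in C1 LAPS, 293 to 345 in C2 WT and 297 to 339 in C2 dKO libraries, and 3 of them passed the filter. Pdgfrb, a gene of stromal cells, was higher in dKO cells, by 2.32 (log2, adjusted p = 3.59e-06) in C1 and 4.68 (adjusted p = 1.72e-09) in C2, and reached at most 107 normalized reads. Afp, a gene of fetal hepatocytes, differed by −1.80 (adjusted p = 3.88e-05) and −0.69 (adjusted p = 0.0425), with at most 165. Pecam1, which endothelial and some blood cells express, was not called in dKO against WT cells of either clone but was lower in LAPS cells, at 153 ± 18.4 beside 386 ± 19.4 in C1 dKO cells (adjusted p = 0.00115). The part of these markers in the results was not tested.

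FOS proteins bind DNA with a partner such as a JUN protein rather than with each other, whereas JUN proteins also form dimers among themselves. BATF proteins pair with JUN proteins and act together with IRF4 or IRF8 at composite sites, and ATF3 forms dimers with itself or with JUN proteins. Fos, Fosb, Jun, Junb and Atf3 are immediate early genes, which cells switch on within minutes of a growth factor or stress signal through MAP kinases and the serum response factor. In myeloid cells AP-1 is known for its role in the monocyte and macrophage programme, where it works beside C/EBP and PU.1 factors, and C/EBPs are themselves bZIP proteins.

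In clone C1, loss of Cebpa and Cebpb went with a 9.67-fold lower level of Atf3 and left the 7 other tested AP-1 genes without a call, whereas in clone C2 Fosb rose, Junb fell, and Fos and Jun passed the threshold narrowly in opposite directions. A call here is a Benjamini-Hochberg adjusted p under 0.05 from limma, fitted to log2(normalized reads + 1) over all 15 libraries. In C1 dKO against WT cells, 0 of 8 genes were called higher (17.1% of all tested genes) and 1 lower (19.9% of all). None was higher at an unadjusted p under 0.05, by edgeR or by DESeq2 in C1, nor in LAPS cells against dKO or WT cells. In C2 dKO against WT cells, 2 of 8 were called higher (17.4% of all) and 2 lower (20.1% of all). The members' shares are thus near those of all genes, and what follows concerns single genes. The median log2 fold change of the 8 genes was −0.26 in C1 and −0.52 in C2, beside −0.01 and −0.03 for all tested genes. With quantile normalization, 56.6% of the genes called in C1 were higher in dKO cells, beside 46.3% on the deposited scale.

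The genes on which these results turn are shown here by the 250 bases upstream of their start, taken from a table of RefSeq starts (GRCm38.p6) in which 9 of the 10 genes were matched. Fosl1 is named only. Capitals mark matches to TGACG, the first bases of the cAMP response element TGACGTCA, to the TATA box TATAAA and to CCAAT, on either strand, and all sequences run 5′ to 3′ on the gene's own strand.
Fos, chr12:85473640-85473889, forward strand: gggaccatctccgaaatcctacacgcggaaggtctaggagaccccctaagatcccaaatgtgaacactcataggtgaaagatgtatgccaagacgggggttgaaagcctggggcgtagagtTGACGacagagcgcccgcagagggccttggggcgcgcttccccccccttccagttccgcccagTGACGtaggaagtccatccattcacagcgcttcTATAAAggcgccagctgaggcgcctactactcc
Fosb, chr7:19310046-19310295, reverse strand: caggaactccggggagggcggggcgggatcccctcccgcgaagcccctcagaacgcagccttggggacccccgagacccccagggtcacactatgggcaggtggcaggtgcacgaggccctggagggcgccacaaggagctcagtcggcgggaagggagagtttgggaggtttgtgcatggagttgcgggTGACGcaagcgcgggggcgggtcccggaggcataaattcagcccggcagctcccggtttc
Junb, chr8:84978749-84978998, reverse strand: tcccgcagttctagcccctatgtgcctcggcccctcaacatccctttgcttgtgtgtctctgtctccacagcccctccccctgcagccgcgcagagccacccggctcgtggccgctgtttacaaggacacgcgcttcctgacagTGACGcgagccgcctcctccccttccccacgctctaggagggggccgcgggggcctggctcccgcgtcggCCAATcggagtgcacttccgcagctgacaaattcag
Jun, chr4:95052223-95052472, reverse strand: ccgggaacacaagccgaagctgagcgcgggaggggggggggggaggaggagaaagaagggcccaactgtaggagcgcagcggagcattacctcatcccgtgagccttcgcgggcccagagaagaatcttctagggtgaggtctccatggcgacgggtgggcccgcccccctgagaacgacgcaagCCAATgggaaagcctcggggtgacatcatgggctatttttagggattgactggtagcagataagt
Atf3, chr1:191183334-191183583, reverse strand: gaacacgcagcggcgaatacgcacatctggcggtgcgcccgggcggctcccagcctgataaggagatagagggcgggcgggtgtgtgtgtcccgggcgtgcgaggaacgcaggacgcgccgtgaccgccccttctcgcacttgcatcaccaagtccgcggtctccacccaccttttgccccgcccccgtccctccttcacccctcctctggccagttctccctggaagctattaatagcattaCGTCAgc

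TGACG stands in the windows of Fos, Fosb, Junb, Batf and Atf3 and in 17.8% of all 32851 windows of the same length. That element is a site for CREB, ATF and AP-1 dimers. Fos holds it at 129 and 66 bases before the start, Fosb at 60, Junb at 106 and Atf3, on the opposite strand, at 7. TATAAA was matched in Fos (12.4% of all windows) and CCAAT in Jun and Junb (33.8% of all). The GC box GGGCGG, left in lower case, was matched in 7 of the 9 windows, all but those of Junb and Jund (32.7% of all). The window of Atf3 belongs to a start that lies inside the longer span of the gene in GENCODE. The whole element TGACGTCA, which contains TGACG (1.55% of all), the AP-1 site TGAGTCA (4.46%), the palindromic C/EBP site TTGCGCAA (0.164%) and the CArG box of serum response factor (1.47%) were matched in none of the 9 windows. These matches describe letters in a short window and say nothing of binding. Near forms of the whole element were not counted, such as tgacatca in the printed window of Jun and ttacgtca in that of Atf3. Bases further upstream were not searched, so the lack of a match does not show that a gene lacks such a site.

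Fos (chr12:85473890-85477273, mm10), the founding member whose protein is made within minutes of stimulation, had 219, 289 and 326 normalized reads in C1 WT, 204, 133 and 166 in C1 dKO and 56.9, 86.7 and 77.5 in C1 LAPS libraries. In clone C2 it had 58.8, 59.8 and 96.2 in WT and 87.9, 219 and 96.5 in dKO libraries. All C1 dKO libraries lay below all C1 WT libraries, while in C2 the groups overlapped and a single dKO library stood far above the others. Fos differed by −0.73 ± 0.30 (log2, SE; adjusted p = 0.0729) in C1 and by 0.81 ± 0.30 (adjusted p = 0.0471) in C2. The difference between these effects was 1.54 ± 0.43 (adjusted p = 0.0133). The call in C2 was lost without C2 dKO replicate 2 (log2 0.40, adjusted p = 0.25), without C2 WT replicate 1 or 2 (both 0.14), and without C1 WT replicate 2, C1 dKO replicate 3 or C1 LAPS replicate 2 or 3 (0.052 to 0.059). It was also lost with a pseudocount of 0.1 (0.053), with no filter (0.064) and with only the groups compared (0.082). In C1 the fall was called with only the groups compared (adjusted p = 0.022), by DESeq2 (0.046) and without C2 dKO replicate 2 (0.02).

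Fosb (chr7:19302696-19310051), the closest relative of Fos, had 61.5, 59.5 and 165 normalized reads in C1 WT, 129, 176 and 79.4 in C1 dKO and 3.05, 80.2 and 8.21 in C1 LAPS libraries. In C2 it had 6.97, 11.5 and 27.5 in WT and 83.7, 158 and 82.6 in dKO libraries. Every C2 dKO library was thus above every C2 WT library, and the C2 dKO values lay within the range of both C1 WT and C1 dKO cells. Fosb rose 7.35-fold in C2 (log2 2.88 ± 0.80 SE, adjusted p = 0.0101). In C1 the difference was 0.52 ± 0.80 (adjusted p = 0.653). The effects in both clones differed by 2.36 ± 1.13 without passing the test (adjusted p = 0.136), though they did so with only the groups compared (0.021) and without C1 LAPS replicate 2 (0.023).

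Fosl1 (chr19:5447547-5455946), which encodes the FRA1 protein and is itself a textbook target of AP-1, had 53.5, 21.6 and 1.02 normalized reads in C1 WT, 6.80, 4.20 and 5.30 in C1 dKO and 14.2, 7.37 and 5.47 in C1 LAPS libraries. The values of C2 were 142, 431 and 313 in WT and 90.0, 91.4 and 144 in dKO libraries. Every C2 library exceeded every C1 library. C1 WT replicate 3, with 1 read, lay far below its group. dKO and WT cells differed by −1.10 ± 0.82 in C1 (adjusted p = 0.32) and by −1.33 ± 0.82 in C2 (adjusted p = 0.218), and neither passed the test. Without C1 WT replicate 3 both did, at −2.47 in C1 (adjusted p = 0.00076) and −1.33 in C2 (0.02), whereas without C1 WT replicate 1 the difference in C1 was −0.09 (0.95). DESeq2 called the fall in C1 (−2.21, adjusted p = 0.04), while edgeR (0.024) and a fit of only the groups compared (0.014) called that in C2. Ccdc85b, on the opposite strand, covers 57.2% of the exon bases of Fosl1, and the strand setting of the counting was not given in the sources used here. Ccdc85b ran from 74.8 to 212 normalized reads and fell by 0.66 (log2, adjusted p = 0.0190) in C2 dKO cells.

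Fosl2 (chr5:32135801-32157842), which encodes FRA2, had 566, 659 and 308 normalized reads in C1 WT, 383, 401 and 470 in C1 dKO and 361, 449 and 417 in C1 LAPS libraries. In clone C2 it had 213, 404 and 277 in WT and 241, 178 and 246 in dKO libraries. The groups within each clone overlapped. The difference between dKO and WT cells was −0.22 (95% interval −0.76 to 0.31) in C1 and −0.39 (−0.92 to 0.14) in C2, and neither was called.

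Jun (chr4:95049034-95052222), the strongest transcriptional activator of the JUN proteins, had 230, 265 and 204 normalized reads in C1 WT, 182, 248 and 149 in C1 dKO and 90.4, 212 and 68.4 in C1 LAPS libraries. C2 cells had 141, 281 and 175 in WT and 98.3, 62.2 and 144 in dKO libraries. WT and dKO values overlapped in both clones. Jun differed by −0.29 ± 0.37 (adjusted p = 0.576) in C1 and by −0.99 ± 0.37 (adjusted p = 0.0481) in C2. The C2 call was made by 3 of 8 other analyses, whose adjusted p ran from 0.032 to 0.078. It was also lost without any of 10 of the 15 libraries, namely C1 WT replicate 1 or 2, any C1 dKO replicate, C1 LAPS replicate 1, C2 WT replicate 2 or 3 and C2 dKO replicate 1 or 2, with the highest adjusted p of 0.2. Junos, an antisense RNA that shares 7.28% of the exon bases of Jun, fell by 3.45 (log2, adjusted p = 1.11e-06) in C2 dKO cells, from 84.5 ± 21.9 to 7.58 ± 5.22 normalized reads (SD, n = 3).

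Junb (chr8:84974484-84978718), often an antagonist of Jun in growth control, had 430, 499 and 374 normalized reads in C1 WT, 341, 471 and 506 in C1 dKO and 426, 474 and 277 in C1 LAPS libraries. The C2 libraries had 817, 937 and 781 in WT and 556, 520 and 546 in dKO libraries. The C2 WT libraries formed a separate upper group. Junb fell 1.56-fold in C2 dKO cells (log2 −0.64 ± 0.18 SE, adjusted p = 0.0100), a call that the 8 other analyses and every fit without 1 library also made. In C1 the difference was 0.01 (95% interval −0.37 to 0.39). The effects in the clones differed by −0.65 ± 0.25 (adjusted p = 0.0662), which passed the threshold with quantile normalization (0.049), with only the groups compared (0.027) and by DESeq2 (0.037), and without C1 WT replicate 2 (0.044), C1 dKO replicate 1 (0.02) or C1 LAPS replicate 3 (0.022). Prdx2, on the opposite strand, shares 7.52% of the exon bases of Junb and ran from 1046 to 1296 normalized reads. Its difference in C2 dKO cells was 0.06 (log2, adjusted p = 0.598).

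Jund (chr8:70698949-70700616), a JUN gene that most cells express without stimulation, was listed at 0 or 1 read in every library. An antisense gene, Gm11175, covers 52.6% of its exon bases and had at most 2 reads. Of the 213 protein-coding genes with as much of their exons under a gene of the other strand, 46.0% had at most 3 reads in every library, beside 47.05% of the 16593 genes with no such overlap. Of the 5059 genes with some overlap, 24.6% were at that floor. These shares are over all protein-coding genes, expressed or not. Whether the overlap lowered the count of Jund was not tested. The annotation and strand setting of the counting are not given in the sources used here, and the near-zero values of Jund were not read as absence of the RNA. No test of Jund was made.

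Batf (chr12:85686669-85709087), a bZIP factor that lacks a transactivation domain, had 325, 281 and 365 normalized reads in C1 WT, 304, 335 and 316 in C1 dKO and 346, 217 and 316 in C1 LAPS libraries. In C2 it had 283, 228 and 248 in WT and 227, 253 and 241 in dKO libraries. Its 15 values lay between 217 and 365, and the groups of each clone overlapped. dKO and WT cells differed by −0.02 (95% interval −0.34 to 0.30) in C1 and by −0.07 (−0.39 to 0.25) in C2. Its relative Batf3 (chr1:191097847-191108945), which is known for its role in dendritic cells, had at most 2 reads in any library and was not tested.

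Atf3 (chr1:191170296-191218039), a stress-induced member that acts as a repressor when it pairs with itself, had 146, 124 and 72.3 normalized reads in C1 WT, 5.66, 19.9 and 9.71 in C1 dKO and 8.13, 7.37 and 5.47 in C1 LAPS libraries. In clone C2 it had 15.9, 28.3 and 24.7 in WT and 20.9, 5.83 and 8.58 in dKO libraries. C1 WT cells stood far above all other groups, and the C2 groups overlapped. Atf3 fell 9.67-fold in C1 dKO cells (log2 −3.27 ± 0.45 SE, adjusted p = 3.27e-05), and all 8 other analyses and every fit without 1 library called this. In C2 the difference was −1.05 ± 0.45 (adjusted p = 0.0814), called without C2 dKO replicate 1 (0.015). The effects differed by 2.22 ± 0.64 (adjusted p = 0.0158). Between the clones' dKO effects as a whole, 2 of 8 AP-1 genes, Fos and Atf3, were called higher (15.1% of all tested genes) and 0 lower (14.3% of all), where Junb was lower at an unadjusted p of 0.0212 and by DESeq2 but not by edgeR.

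**Figure D1:**
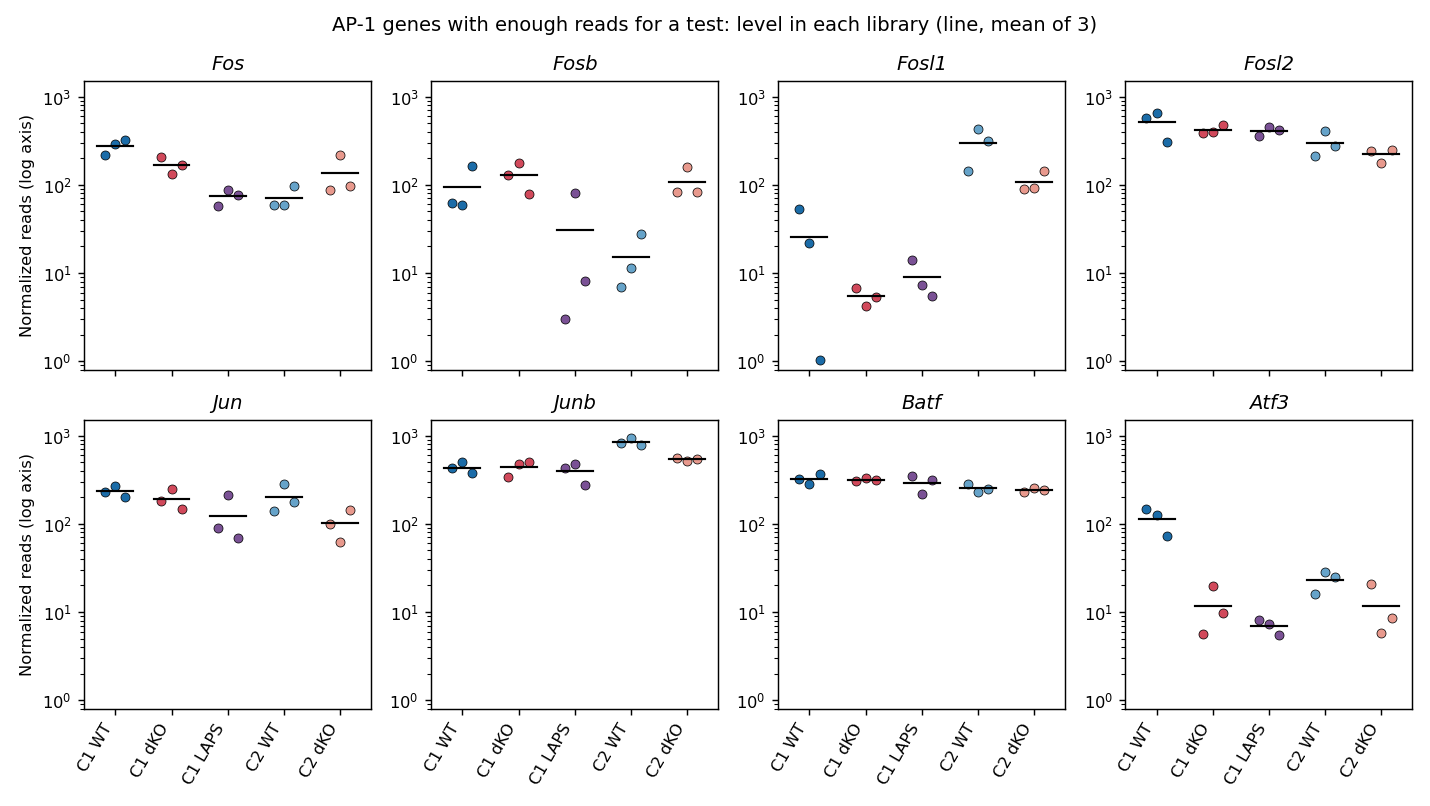
Normalized reads on a log axis for the 8 tested AP-1 genes in each of the 15 libraries; points are libraries in the order of their replicate numbers, colours are groups and lines are the means of 3. Atf3 stood at 72.3 to 146 in C1 WT libraries and at 28.3 or less in all others, and Fosl1 at 90.0 or more in all C2 and at 53.5 or less in all C1 libraries.

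Expression of LAP* in C1 dKO cells brought none of the tested AP-1 genes up to a call, and Fos and Fosb were lower than in dKO cells. In LAPS against dKO cells, where the dKO libraries are those already set against WT cells, 0 of 8 genes were called higher (1.43% of all tested genes) and 2 lower (3.03% of all), with a median log2 fold change of −0.36 beside 0.00 for all tested genes. Fos was 2.26-fold lower, with no overlap between the groups (log2 −1.18 ± 0.30 SE, adjusted p = 0.0398). This call was lost when any C1 dKO or C1 LAPS library was left out (adjusted p = 0.064 to 0.13), with a smaller pseudocount and with quantile normalization (both 0.051). Fosb was 8.49-fold lower (log2 −3.09 ± 0.80, adjusted p = 0.0399), but its LAPS values of 3.05, 80.2 and 8.21 reached into the dKO range, and only 3 of 8 other analyses called it (adjusted p = 0.034 to 0.2). The log2 fold change was smaller by edgeR (−2.04) and DESeq2 (−2.07), and was −2.17 without C1 LAPS replicate 1 and −4.33 without C1 LAPS replicate 2. Without C1 dKO replicate 1, 2 or 3, C1 LAPS replicate 1 or 3, C2 WT replicate 2 or C2 dKO replicate 1 or 3 its call was also lost (0.052 to 0.16). Jun (−0.78 ± 0.37, adjusted p = 0.286) and Atf3 (−0.53 ± 0.45, adjusted p = 0.599) gave no call.

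LAPS cells were also set against C1 WT cells, a comparison that shares its LAPS libraries with the one before and its WT libraries with that of dKO cells. Here 0 of 8 AP-1 genes were called higher (14.2% of all tested genes) and 4 lower (18.3% of all). Atf3 was 14.0-fold lower (log2 −3.81 ± 0.45 SE, adjusted p = 7.53e-06) and Fos 3.74-fold lower (−1.90 ± 0.30, adjusted p = 0.000139), both without overlap and called in every other analysis. Fosb (−2.57 ± 0.80, adjusted p = 0.0220) and Jun (−1.07 ± 0.37, adjusted p = 0.0369) overlapped with WT cells and were each called by 5 of 8 other analyses. Fosb was not called without C1 LAPS replicate 1 (0.12) or 3 (0.082) or C1 WT replicate 3 (0.081), nor Jun without C1 LAPS replicate 1 (0.12) or 3 (0.18) or C1 WT replicate 1 (0.08) or 2 (0.11). For Fosb the log2 fold change was −1.61 by edgeR, −1.63 by DESeq2, −1.65 without C1 LAPS replicate 1 and −3.81 without C1 LAPS replicate 2. C1 LAPS replicate 2 was the highest library of its group for Fos, Fosb, Fosl2, Jun and Junb and the lowest for Batf. Fosl1 (adjusted p = 0.0059) and Fosl2 (0.046) were called lower only without C1 WT replicate 3. Among all genes called in this comparison, 43.6% were higher in LAPS cells on the deposited scale and 56.9% with quantile normalization.

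**Figure D2:**
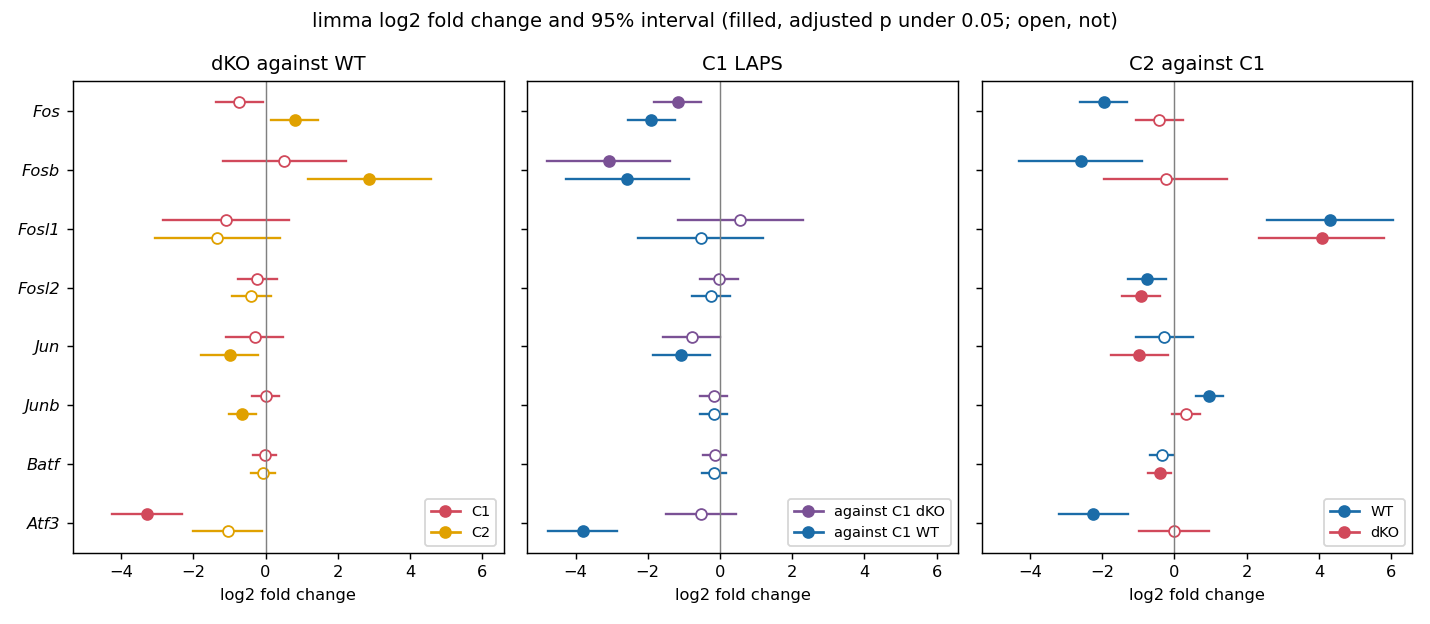
limma log2 fold change (points) with its 95% interval (lines) for the 8 tested AP-1 genes in 6 comparisons; filled points have an adjusted p under 0.05. Fos lies on opposite sides of 0 in the dKO comparisons of the clones (−0.73 and 0.81), and Fosl1 is the gene furthest to the right between the clones (4.31 in WT and 4.07 in dKO cells).

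The clones differed in AP-1 genes before the deletion, in comparisons that reuse the WT and dKO libraries above. In C2 WT against C1 WT cells 2 of 8 genes were called higher (19.7% of all tested genes) and 4 lower (21.3% of all), and the median absolute log2 fold change was 1.46, beside 0.28 for all tested genes. Fosl1 was 19.8-fold higher in C2 (log2 4.31 ± 0.82 SE, adjusted p = 0.000501) and Junb 1.95-fold higher (0.97 ± 0.18, adjusted p = 0.000397). For Fosl1 the log2 fold change was 2.94 without C1 WT replicate 3, the library with 1 read, and 5.31 without C1 WT replicate 1. It was 3.64 by edgeR, 3.56 by DESeq2 and 3.70 with a pseudocount of 5, and every one of these analyses called it. Ccdc85b, its neighbour, was also higher, by 0.83 ± 0.21 (adjusted p = 0.00435). Fos was 3.90-fold lower (−1.96 ± 0.30, adjusted p = 7.72e-05), Atf3 4.73-fold lower (−2.24 ± 0.45, adjusted p = 0.000874) and Fosb 6.05-fold lower (−2.60 ± 0.80, adjusted p = 0.0166), each without overlap. Fosl2 was 1.69-fold lower with overlapping groups (−0.75 ± 0.25, adjusted p = 0.0245). Without 1 library Fosb lost its call for C1 WT replicate 3 and C2 WT replicate 1 (both 0.072), and Fosl2 for C1 WT replicate 1 (0.09) or 2 (0.12) and C2 WT replicate 1 (0.12) or 3 (0.067). Fosl2 was also not called with only the groups compared (0.091).

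After the deletion fewer of the AP-1 genes were called between the clones, with 1 of 8 higher in C2 dKO than in C1 dKO cells (22.8% of all tested genes) and 3 lower (24.9% of all). Fosl1 remained 16.8-fold higher in C2 (4.07 ± 0.82, adjusted p = 0.000705; 3.42 with a pseudocount of 5). Fosl2 was 1.90-fold lower (−0.92 ± 0.25, adjusted p = 0.00654), Jun 1.96-fold lower (−0.97 ± 0.37, adjusted p = 0.0419) and Batf 1.32-fold lower (−0.40 ± 0.15, adjusted p = 0.0378). For Fos the difference was −0.42 (95% interval −1.07 to 0.22), for Fosb −0.24 (−1.94 to 1.47) and for Atf3 −0.02 (−0.98 to 0.94). The calls of Jun and Batf were each lost without any of 6 libraries, with adjusted p up to 0.18 and 0.11, and Fos was called lower without C2 dKO replicate 2 (0.015). For Jun these were C1 WT replicate 1, C1 dKO replicates 1 and 2, C2 WT replicate 3 and C2 dKO replicates 1 and 2, and for Batf all C1 dKO and C2 dKO replicates. Jun was also not called with no filter (0.058), with quantile normalization (0.070), by edgeR (0.056) or by DESeq2 (0.081), nor Batf with no filter (0.055) or with quantile normalization (0.093).

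Levels can be set between genes only per length, and normalized reads per kb of exon (GENCODE vM21) are used for this. The length joins all annotated exons of a gene, whichever transcripts the cells make. It was 6243 bases for Fosb, 9680 for Fosl2 and 2033 for Fosl1, and the order of genes depends on it. In C1 WT cells Batf (230 ± 29.7, SD, n = 3) and Junb (189 ± 27.2) led with overlapping ranges, followed by Fos (118 ± 23.0). Jun (73.1 ± 9.66), Atf3 (53.0 ± 17.5) and Fosl2 (52.8 ± 18.8) overlapped as neighbours, and Fosb (15.3 ± 9.67) and Fosl1 (12.5 ± 13.0) were lowest. C1 dKO and C1 LAPS cells also had Batf and Junb on top with overlapping ranges. In clone C2 Junb led Batf without overlap, at 367 ± 35.5 against 180 ± 19.9 in WT and 235 ± 7.98 against 171 ± 9.16 in dKO cells. Fosl1 was the third gene in C2 WT cells (145 ± 71.4), with a range that overlapped its neighbours Batf and Jun (62.4 ± 22.8), and Fosb the last (2.46 ± 1.73).

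Summed over Fos, Fosb, Fosl1 and Fosl2, the FOS genes reached 199 ± 11.6 normalized reads per kb in C1 WT, 138 ± 11.3 in C1 dKO and 82.9 ± 15.6 in C1 LAPS cells, and the ranges of these groups did not overlap. In clone C2 the sum was 209 ± 83.0 in WT and 151 ± 30.9 in dKO cells, with overlap. Fos made up 59.3% ± 10.4 of the sum in C1 WT and 16.0% ± 6.27 in C2 WT cells, and Fosl1 made up 6.44% ± 6.98 and 67.4% ± 8.09. In C2 dKO cells Fos and Fosl1 had near-equal shares (36.5% ± 12.8 and 36.2% ± 11.2), and Fosb rose from 1.18% ± 0.668 of the sum in C2 WT to 11.3% ± 2.59. In C1 LAPS cells Fosl2 was the main component (51.5% ± 4.28, beside 26.5% ± 9.02 in C1 WT cells). Jun made up 27.9% ± 0.255 of the sum of Jun and Junb in C1 WT and 14.3% ± 3.35 in C2 WT cells. These sums and shares are descriptions that depend on the exon lengths used, and they were not tested.

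**Figure D3:**
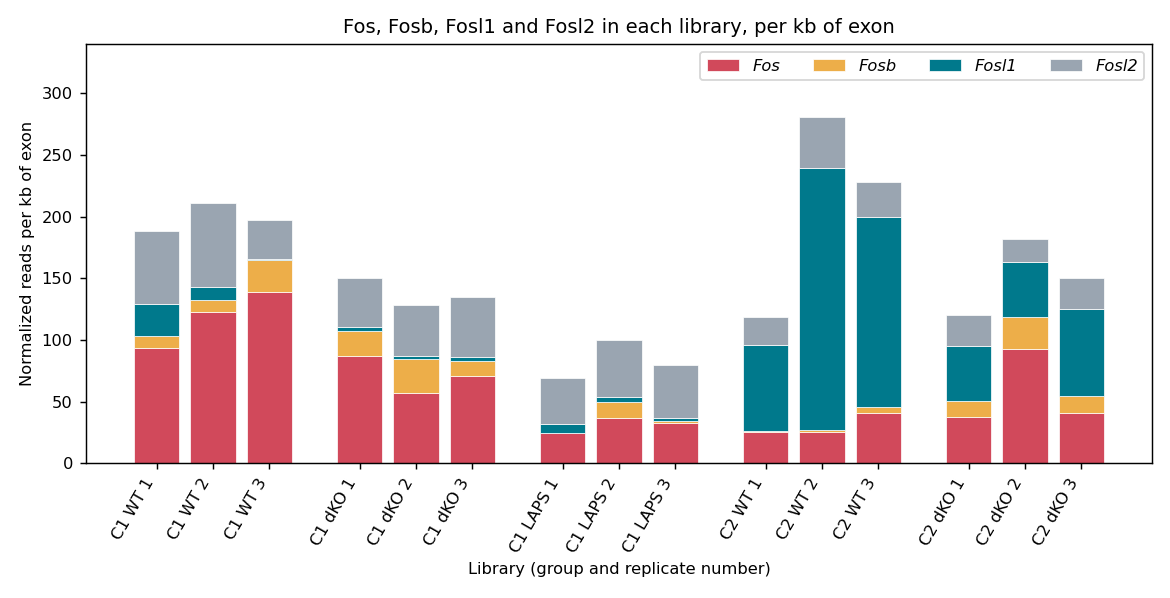
Normalized reads per kb of exon of Fos, Fosb, Fosl1 and Fosl2, stacked for each of the 15 libraries (group and replicate number on the horizontal axis). Fosl1 makes up 67.4% of the column on average in C2 WT libraries and 1.92% in C1 dKO libraries.

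Replicates of a line differed most for Fosl1 and Fosb. The highest of 3 libraries exceeded the lowest 52.5-fold for Fosl1 in C1 WT and 26.3-fold for Fosb in C1 LAPS cells, beside 1.10-fold for Batf in C1 dKO and 1.07-fold for Junb in C2 dKO cells. In C2 dKO replicate 2, Fos (219), Fosb (158) and Batf (253) were the highest of their group. Fosl2 (178), Jun (62.2), Junb (520) and Atf3 (5.83) were the lowest there. C1 WT replicate 3 was likewise highest for Fos (326), Fosb (165) and Batf (365) and lowest for Fosl1, Fosl2, Jun, Junb and Atf3.

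Among the MAP kinases and serum response factors that act upstream of AP-1 genes, all 19 listed genes were tested. In C1 dKO cells 3 were called higher (Elk3, Srf and Mrtfa) and 8 lower, beside 17.1% and 19.9% of all tested genes (median log2 −0.06, beside −0.01 for all tested genes). In C2 dKO cells 5 were higher (Elk4, Map2k6, Map2k2, Map2k7 and Mrtfa) and 5 lower (Map3k8, Map2k1, Map2k4, Mapk3 and Mapk9), beside 17.4% and 20.1% of all, with a median of −0.08, beside −0.03. The same shares of all tested genes hold for dKO against WT cells in the lists that follow. Map3k8, a kinase that activates the ERK and JNK branches in myeloid cells, fell in both clones, at 237 ± 72.1 normalized reads in WT and 80.5 ± 11.5 in dKO cells of C1 (adjusted p = 0.000181) and 28.5 ± 5.69 and 15.6 ± 3.83 in those of C2 (adjusted p = 0.0145). Map2k1, the ERK kinase MEK1, fell by 0.48 (log2) in both (adjusted p = 0.00922 and 0.00876). Map2k6, a p38 kinase activator, and Elk4, a partner of serum response factor, rose in C2 by 1.04 (adjusted p = 0.000594) and 1.02 (adjusted p = 2.94e-06), and in C1 their changes were 0.20 (adjusted p = 0.463) and 0.22 (adjusted p = 0.139).

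Of 9 further bZIP genes whose proteins can pair with AP-1 members or share their sites, 7 were tested. In C1 dKO cells 1 was called higher (Jdp2) and 3 lower (Maf, Maff and Atf2; median −0.18), and in C2 dKO cells 0 higher and 3 lower (Jdp2, Maff and Mafg; median −0.41). Maf, a macrophage factor, stood at 83.5 to 301 normalized reads in C1 WT libraries and at 3.05 or less in all others. Maff, a small MAF protein, fell in C1 from 28.2 ± 11.7 to 14.0 ± 2.36 (adjusted p = 0.0361) and in C2 from 157 ± 29.5 to 58.6 ± 8.78 (adjusted p = 0.00246). Jdp2, a repressor that pairs with JUN proteins, rose in C1 by 0.73 (adjusted p = 9.12e-05) and fell in C2 by 0.41 (adjusted p = 0.00918). Mafg fell in C2 by 0.52 (adjusted p = 0.000101). Of the IRF partners of BATF, Irf8 fell in C1, with 806 to 999 normalized reads in WT and 239 to 358 in dKO libraries (adjusted p = 3.66e-06) and was 89.0 ± 14.4 in C2 WT and 68.8 ± 7.46 in C2 dKO cells (adjusted p = 0.124). Irf4 was at most 31.8 in any library and not called in either clone.

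Other immediate early genes share their upstream signals with Fos and Jun, and 19 of 20 listed genes were tested. In C1 dKO cells 1 was called higher (Csrnp1) and 6 lower (median −0.24), and in C2 dKO cells 3 higher (Ier5, Myc and Dusp2) and 1 lower (Egr1), with a median of −0.14. Klf4, a factor of the monocyte lineage, fell in C1 from 124 ± 50.2 to 10.9 ± 3.55 normalized reads (adjusted p = 1.69e-05) and Dusp5, an ERK phosphatase, from 295 ± 43.0 to 122 ± 6.32 (adjusted p = 7.98e-06). Neither was called in C2, where Egr1, a zinc finger factor induced beside Fos, fell from 384 ± 171 to 57.7 ± 12.2 (adjusted p = 0.000494). Ier3 was not called in either clone. In LAPS against dKO cells 0 were called higher and 4 lower (median −0.33, beside 0.00 for all tested genes), beside 1.43% and 3.03% of all, namely Nr4a1 (−1.02 ± 0.21, adjusted p = 0.0108), Dusp1 (−1.66 ± 0.37, adjusted p = 0.0189), Dusp5 (−0.85 ± 0.15, adjusted p = 0.00414) and Zfp36 (−0.46 ± 0.12, adjusted p = 0.0407). In LAPS against WT cells 0 were called higher and 9 lower (median −0.58), beside 14.2% and 18.3% of all.

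**Figure D4:**
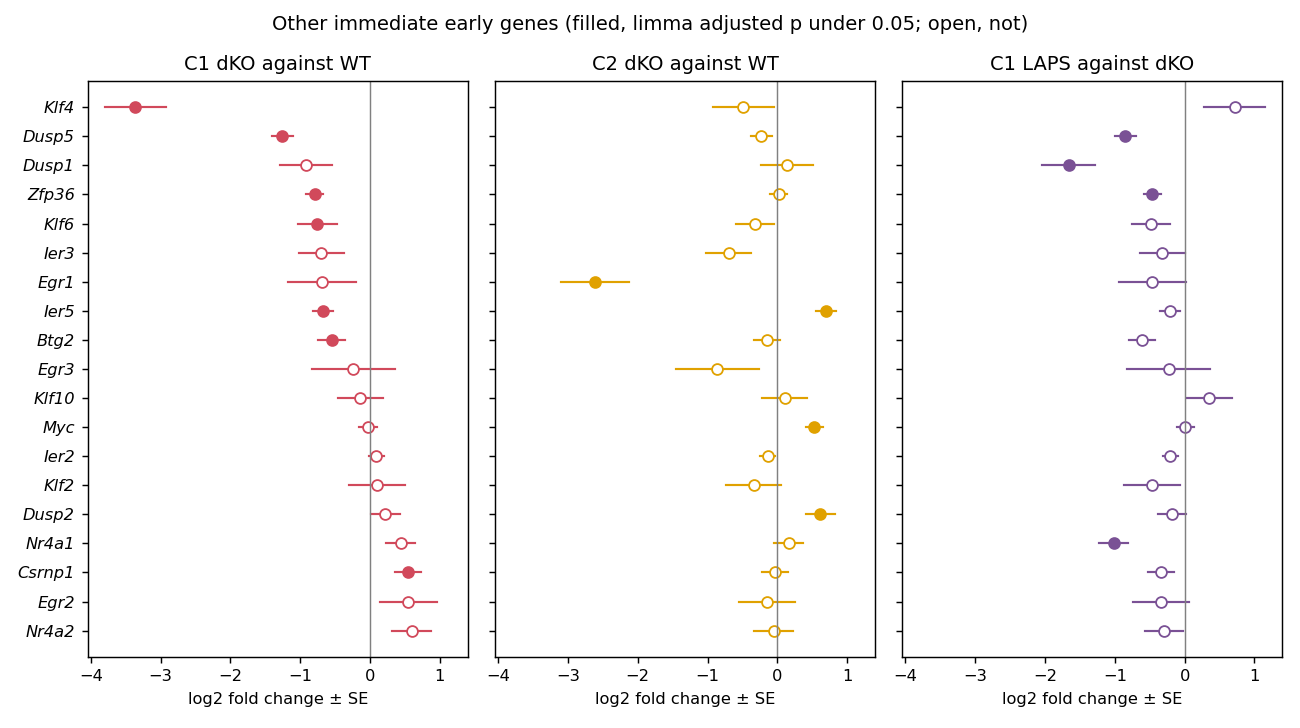
limma log2 fold change ± SE of 19 immediate early genes outside AP-1 in 3 comparisons, ordered by the change in C1 dKO cells; filled points have an adjusted p under 0.05. Klf4 is lowest in C1 dKO cells (−3.36) and Egr1 in C2 dKO cells (−2.61), and all 4 filled points of LAPS against dKO cells lie below 0.

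The proteins COP1, ITCH, FBXW7, DET1 and menin limit the stability or activity of JUN proteins, and all 5 of their genes were tested. Itch rose in C1 dKO cells by 0.58 (adjusted p = 0.000119) and Cop1 in C2 dKO cells by 0.72 (adjusted p = 2.15e-05), and these were the only calls among them in those comparisons.

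Of 13 textbook AP-1 target genes 10 were tested. In C1 dKO cells 1 was called higher (Mmp9) and 6 lower (median −1.12, beside −0.01 for all tested genes). In C2 dKO cells 2 were higher (Mmp9 and Cd44) and 3 lower (Hmox1, Spp1 and Plaur), with a median of −0.52, beside −0.03. Several of these genes are also known C/EBP targets. Hmox1, a heme-degrading enzyme, was lower in dKO cells of either clone, at 415 to 631 normalized reads in WT and 70.2 to 85.0 in dKO libraries of C1 (adjusted p = 1.1e-05) and 595 to 1190 and 65.1 to 183 in those of C2 (adjusted p = 1.02e-05). Mmp9, a matrix protease, rose in both, from 112 ± 42.1 to 762 ± 249 in C1 (adjusted p = 0.000231) and from 183 ± 117 to 707 ± 419 in C2 (adjusted p = 0.00312). It was the listed target called in LAPS against dKO cells (0 of 10 higher and 1 lower, beside 1.43% and 3.03% of all tested genes), where it fell to 143 ± 15.8 (adjusted p = 0.00928) and differed from C1 WT cells by 0.43 (adjusted p = 0.537). In LAPS against WT cells 1 of the 10 targets was called higher (Spp1) and 8 lower, beside 14.2% and 18.3% of all (median −1.54, beside 0.00), and Mmp9 alone was not called. Spp1, which encodes osteopontin, fell in C2 from 8797 ± 5380 to 1375 ± 401 (adjusted p = 0.00140) and was 650 ± 547 in C1 WT and 851 ± 111 in C1 dKO cells (adjusted p = 0.273). Ccl2, a monocyte chemokine, stood at 68.3 to 293 in C1 WT libraries and at 10.1 or less in all others.

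For the 5 AP-1 genes with a mean of at least 100 normalized reads (Fos, Fosl2, Jun, Junb and Batf), the most similar genes across the 15 libraries were sought among the other tested genes by Pearson's r of log2(normalized reads + 1). These libraries share groups, lines and 1 normalization, so r is a description of these samples. Fos was most like Fcer1g (0.918), Acsl1 (0.869) and Cotl1 (0.869). Junb was most like Ndst1 (0.959), Ppp1r15a (0.929) and Ier2 (0.920), and the last of these is itself an immediate early gene. For Fosl2 they were Glipr2 (0.930), Cd86 (0.920) and Klra2 (0.915), for Jun Klf11 (0.883), Usp17ld (0.860) and Cchcr1 (0.848), and for Batf Aagab (0.902), AI467606 (0.898) and Ndufa8 (0.865). When group means were removed, so that only the spread between replicates was left, the leading genes were Rbm3 for Fos (0.884), Klra2 for Fosl2 (0.963), Klf6 for Jun (0.878), Lmbr1l for Junb (0.940) and Gm45151 for Batf (0.916).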

How the data were processed

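RNA was sequenced from 15 libraries in 5 groups of 3. The authors prepared stranded libraries, aligned reads to mm10 with STAR 2.5.3a, counted them per gene with HTSeq 0.10.0 and normalized the counts with DESeq2 1.26.0 (versions from the submitters' processing notes). The annotation and strand setting of the counting are not given in the sources used here. The deposited signal is thus a read count per gene divided by 1 size factor per library, and whole reads were recovered from it (at least 99.99% of values within 0.1 of a whole read). In C2 WT replicate 1 the size factor lies so near 1 that low values are close to whole before any scaling, so this share says little there, and its values were rounded like the others. Rows of other reads, 22.4% to 26.2% of a library, were left out. So were 3 columns labelled as LAPS cells of clone C2, which were not matched to a sample.

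limma 3.58.1 (R 4.3.3, trended prior) was fitted over all 15 libraries to log2(normalized reads + 1), with a mean for each group and a filter that kept genes at 10 or more normalized reads in 3 or more libraries. Fold changes are on this log2 scale, where the pseudocount shrinks the differences of low genes and a single low library weighs more than in a fit to counts. As alternatives, 8 further analyses used a pseudocount of 0.1 or 5, no filter, quantile normalization, only the groups compared, a replicate block, and edgeR 4.0.16 and DESeq2 1.42.0 on recovered reads, beside a log2 fold change of at least 1 and fits without each library. The fits were tested on simulated data. All 10 members are named, with at most 4 genes per list by their mean absolute log2 fold change in dKO against WT cells of both clones, any gene that a count of 5 or fewer needs, and the 3 genes most like a member with a mean of at least 100 normalized reads. The members and lists were chosen with earlier results of these data known. Gene positions and exon lengths are those of GENCODE vM21, and upstream windows those of RefSeq. Figures were drawn with Python 3.11.15, pandas 2.3.3, numpy 2.4.6 and matplotlib 3.10.9.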

Additional observations from a re-analysis of the deposited data

Results flagged for a closer look

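The effect of the loss of Cebpa and Cebpb differed between the clones by limma's test of the difference (C2 minus C1, log2) for 2 AP-1 genes. For Fos the difference was 1.54 (effects of −0.73 in C1 and 0.81 in C2, adjusted p = 0.0133), and for Atf3 2.22 (−3.27 and −1.05, adjusted p = 0.0158). Both were called by all 8 other analyses. The same number is the difference of C2 from C1 in dKO cells less that in WT cells. For Atf3 these were −0.02 in dKO and −2.24 in WT cells, with a mean of 11.8 normalized reads in the dKO cells of either clone. For Fos they were −0.42, which was not called, and −1.96.

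All genes of the lists with a called difference are given here, also those that the rule for named genes leaves out. It was upward for the partners, kinases and factors Atf2 (0.46, adjusted p = 0.0257), Irf8 (1.22, adjusted p = 0.00160), Map2k6 (0.84, adjusted p = 0.0317) and Elk4 (0.80, adjusted p = 0.00102), for the immediate early genes Ier5 (1.36, adjusted p = 0.000107), Zfp36 (0.81, adjusted p = 0.00197), Klf4 (2.87, adjusted p = 0.00232), Myc (0.56, adjusted p = 0.0249) and Dusp5 (1.03, adjusted p = 0.00191), for the JUN regulator Cop1 (0.70, adjusted p = 0.000936) and for the targets Ccnd1 (1.96, adjusted p = 0.0355), Cd44 (0.76, adjusted p = 0.00207) and Tnf (1.69, adjusted p = 0.00219). It was downward for the partners, kinases and factors Jdp2 (−1.14, adjusted p = 6.69e-05), Mafg (−0.40, adjusted p = 0.0146), Mapk3 (−0.71, adjusted p = 0.000477), Map2k4 (−0.31, adjusted p = 0.00798), Srf (−0.42, adjusted p = 0.0429) and Elk3 (−0.58, adjusted p = 0.0176), and for Egr1 (−1.92, adjusted p = 0.0445), Itch (−0.43, adjusted p = 0.0208) and Spp1 (−3.27, adjusted p = 0.00342). Ier5 fell in C1 (−0.67, adjusted p = 0.00147) and rose in C2 (0.69, adjusted p = 0.00115). Among the cell type markers the difference was upward for Ptprc (0.72, adjusted p = 0.0102), Kit (0.96, adjusted p = 0.000375), Csf1r (2.27, adjusted p = 7.04e-05), Afp (1.11, adjusted p = 0.0289) and Pdgfrb (2.36, adjusted p = 0.000170). For Maf (5.90), Ccl2 (4.03) and Cd34 (3.00) the fitted difference depends on the pseudocount, since 1 or more groups hold few or no reads.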

How the results depend on the processing

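Of the recounts of members called, 130 stayed within 1.5 times the reported count and 38 did not. Of the refitted results of single members, 84 lost a call, 22 gained a call and 1178 did neither, and 0 of the called results turned direction. For dKO against WT in C1 (1 member called) the count was 2 with only the groups compared, 3 by DESeq2 and 1 to 2 without 1 library. In C2 (4) it was 2 with a pseudocount of 0.1, 2 without the filter, 1 at a log2 fold change of at least 1 and 2 to 5 without 1 library. For the difference between the clones' effects (2) it was 4 with only the groups compared and 2 to 3 without 1 library. For LAPS against dKO (2) it was 0 with a pseudocount of 0.1, 1 each without the filter, with quantile normalization, with only the groups compared, by edgeR and by DESeq2, and 0 to 2 without 1 library. For LAPS against WT (4) it was 2 each with only the groups compared, by edgeR and by DESeq2, and 2 to 5 without 1 library. For C2 against C1 it was 4 to 7 in WT cells (6) without 1 library, and in dKO cells (4) it was 2 without the filter, 2 with quantile normalization, 1 at a log2 fold change of at least 1 and 2 to 4 without 1 library. The cause was not tested, beyond the fewer samples or genes that a setting holds. Counts over the gene lists stayed within 1.5 times in 921 recounts and did not in 87. For the kinases and serum response factors called in C1 dKO cells (11) the count was 6 with only the groups compared, 7 without C1 dKO replicate 2 or C1 WT replicate 1 and 1 at a log2 fold change of at least 1, which left 2 of 10 in C2. For the bZIP partners in C1 (4) it was 2 without the filter, with only the groups compared and without C1 dKO replicate 2 or 3, and 1 without C1 WT replicate 1 or 2 and at that fold change, which left 1 of 3 in C2. Both IRF genes were called in C1 without C1 WT replicate 2. For the immediate early genes it was 4 of 7 in C1 without C1 WT replicate 1 and 2 of 4 in LAPS against dKO cells without C1 dKO replicate 2 or 3, and that fold change left 2 of 7 in C1, 1 of 4 in C2 and 2 of 4 in LAPS cells. For the regulators in C2 (1) it was 2 with only the groups compared and without C1 LAPS replicate 1, C1 WT replicate 1 or 3 or C2 WT replicate 1, and that fold change left 0 in either clone. For the targets it was 3 of 5 in C2 without C2 dKO replicate 3 and at that fold change, and in LAPS against dKO cells (1) it was 3 with only the groups compared and 2 by DESeq2, with a replicate block and without C1 WT replicate 2 or 3 or C2 WT replicate 1. Replicate numbers did not pair the samples (r of deviations from −0.319 to 0.297 for 30 pairs of equal number, with 5 over 0.1, and from −0.252 to 0.332 for 60 others), and a fit with a replicate block called 1, 4, 2, 2, 4, 6 and 4 members in the 7 comparisons, as without it. Atf3 outside C1 WT cells, Fosl1 in C1 and Fosb in C2 WT cells and in C1 LAPS replicates 1 and 3 rest on few reads, which limits their precision.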
